A study of Mus musculus with 51 samples.

Results

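Gene expression in the forelimb bud of wild-type FVB mouse embryos was compared between E9.5 and E10.5, the day on which the bud grows out from the flank. The members are the 8 arrays titled as forelimb of these stages, 3 from E9.5 and 5 from E10.5, of 51 arrays in the series. Each array carried total RNA of the forelimb buds of 1 untreated embryo, as the stated methods have it, cut from the body and labelled in 2 cycles for a whole-genome mouse array. The remaining arrays held hindlimb from E10.5, forelimb from E11.5 and whole embryo from E9.5, each up to E13.5. Among them, 4 hindlimb arrays and 2 whole-embryo arrays of E10.5, 2 whole-embryo arrays of E9.5 and 4 forelimb arrays of E11.5 are given beside the comparison. By the stated methods the replicate embryos of a stage came from 1 litter, so stage and litter cannot be told apart. The p-values rest on the spread between arrays within a group, pooled over all 14 groups of tissue and stage, and not on that between litters.

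The early limb bud is a core of mesenchyme from the lateral plate mesoderm, covered by ectoderm. At its tip the apical ectodermal ridge secretes FGFs, and at its posterior margin the zone of polarizing activity secretes SHH, and both signals keep each other active through the BMP inhibitor GREM1. HoxA and HoxD genes are switched on in the order of their place in the cluster, with the last groups marking the future hand, while retinoic acid from the trunk acts on the proximal bud and is degraded distally. Muscle precursors, blood vessels and blood cells enter the bud from the body.

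The 2 stages lay on different sets of arrays, and this touches every value of the comparison. Dap, a bacterial control transcript, had log2 intensities of 12.80 to 13.29 in the E9.5 forelimbs and 3.20 to 3.41 in the E10.5 forelimbs. The 3′ probe set of Gapdh exceeded its 5′ probe set by 1.48 to 1.73 at E9.5 and by 0.02 to 0.16 at E10.5, and that of Actb by 1.11 to 1.38 and by 0.21 to 0.35. The 10 whole-embryo arrays and the E9.5 forelimb, a first set of 13 arrays, had Dap between 10.71 and 13.29, and all later limbs, a second set of 38, had it between 3.04 and 3.63. In the forelimb, stage and array set thus cannot be told apart. Gene values correlated at 0.995 to 0.996 within E9.5, at 0.995 to 0.997 within E10.5 and at 0.960 to 0.969 between the stages, each across 18194 genes, which are not independent replicates.

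The 3 E9.5 arrays also carried transcripts of both sexes. Xist, the transcript of the inactive X chromosome, read 8.55, 6.83 and 7.55 on them, while the mean of the Y-linked genes Eif2s3y, Kdm5d and Uty lay between 4.71 and 5.20. Array 2 of E10.5 hindlimb had both as well, at 8.61 and 5.28. Of the other 47 arrays, 20 had Xist between 8.47 and 11.66 with a Y-linked mean of 3.09 to 3.47, and 27 had Xist between 3.63 and 4.89 with a Y-linked mean of 4.98 to 6.21. The E9.5 values therefore went against the stated single embryo per array, and their cause was not tested. Prl8a2, which encodes a prolactin of the maternal decidua, read 4.66, 6.89 and 8.79 at E9.5 and 3.56, 3.50, 3.27, 3.30 and 3.62 at E10.5, a log2 fold change of -3.33 ± 0.37 (SE; adjusted p = 2.46e-10), and averaged 6.04 in E9.5 whole embryo. Fitted on the 8 forelimb arrays alone, Prl8a2 had an adjusted p of 0.00123 and missed the threshold. Leaving out the hindlimb array moved the E10.5 hindlimb means given here by at most 0.65 (median 0.03).

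**Figure D1:**
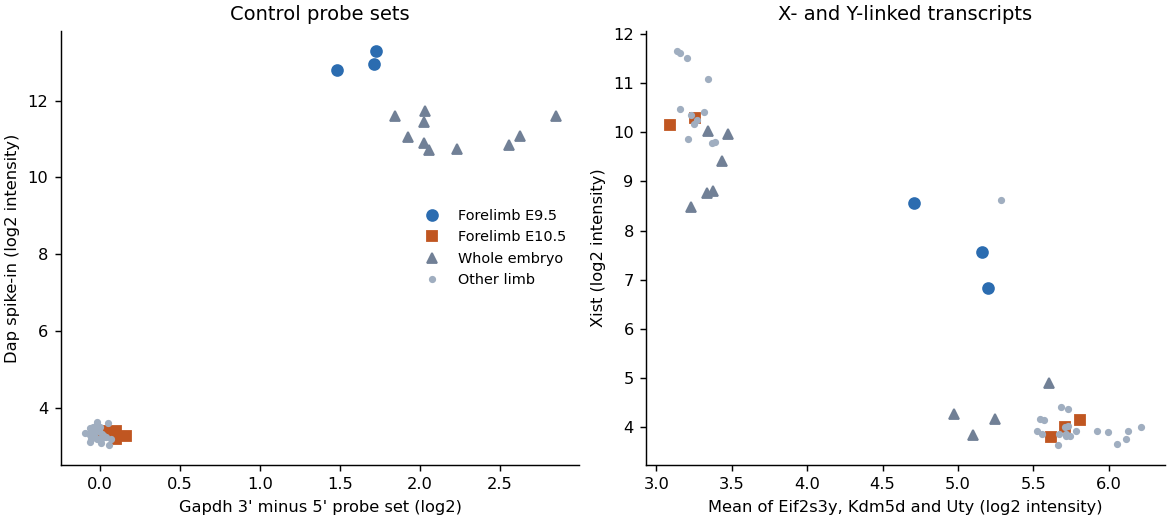
Left, log2 intensity of the Dap control against the excess of the 3′ over the 5′ Gapdh probe set; right, Xist against the mean of 3 Y-linked genes, with 1 point per array. The E9.5 forelimb arrays sit with whole embryo on the left (Dap 12.80 to 13.29) and, together with 1 hindlimb array, apart from both clusters on the right (Xist 6.83 to 8.55 with a Y-linked mean of 4.71 to 5.20).

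Calls, up-regulated or down-regulated, required a change of 2-fold or more and an adjusted p under 0.001 in limma, which tests the difference of group means, with Benjamini-Hochberg adjustment over all genes. Up-regulated at E10.5 were 1044 of 18194 genes (5.74%), 157 of them by 4-fold or more, and down-regulated were 328 (1.80%), 37 of them by 4-fold or more. The median log2 fold change of all genes was -0.10, against -0.04 after quantile normalization and -0.19 with each array centred on its median. Up-regulated genes made up 76.1% of all calls, 68.1% after quantile normalization (848 up, 398 down), 64.7% with arrays centred (850 up, 463 down) and 64.5% where each gene was read from its brightest probe set (999 up, 551 down). The E10.5 arrays all lay above the E9.5 arrays for 1043 of the 1044 genes and all below for 322 of the 328, beside 25.2% and 32.0% of all genes. For 513 of the up-regulated genes (49.1%) every array of the later limbs also lay above every array of the first set, beside 5.52% of all genes, and for 69 of the down-regulated genes (21.0%) below it, beside 1.37%. For these genes the level follows the array set over all 51 arrays. As the first set held all whole embryos and the second only later limbs, array set, tissue and stage cannot be told apart there.

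The probe sets of a gene often disagreed. Of 9012 genes with 2 or more probe sets, every probe set was up-regulated in 101 (1.12%) and down-regulated in 40 (0.444%). Among the 646 up-regulated genes with 2 or more, 466 had probe sets of 1 direction and 180 had opposed ones, and among the 112 down-regulated genes 104 and 8. Genes were favoured that had every probe set called, no overlap between the forelimb stages and overlapping array sets. These were 64 up-regulated and 36 down-regulated genes, and the 12 of largest change on each side are described first.

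**Figure D2:**
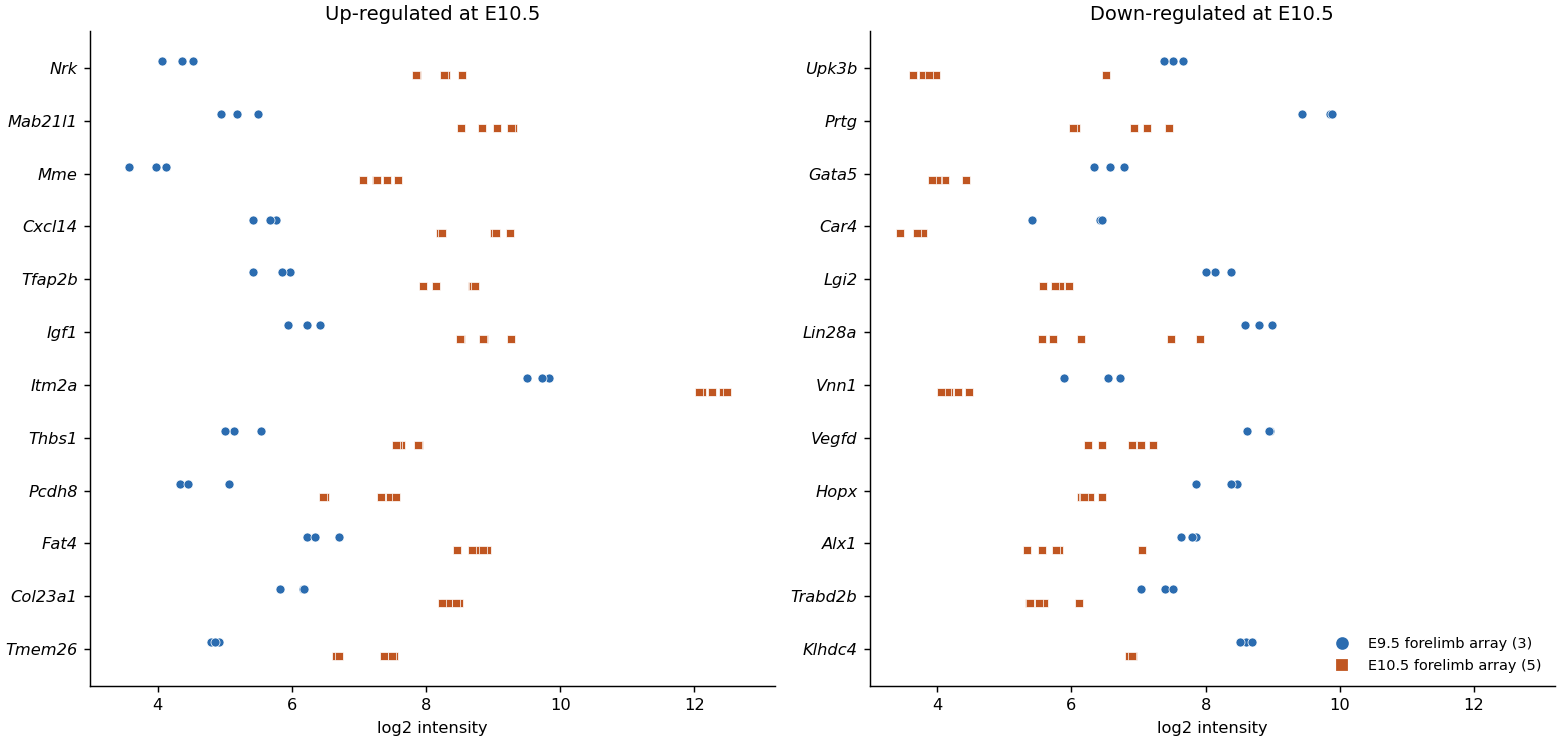
Log2 intensity on each forelimb array for the 12 up-regulated (left) and 12 down-regulated (right) genes of largest change whose probe sets agreed, with circles for the 3 E9.5 arrays and squares for the 5 E10.5 arrays. The genes were chosen so that the stages do not overlap, and a single E10.5 array comes nearest to E9.5 for Upk3b (6.51) and Alx1 (7.06).

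Nrk, an X-linked protein kinase, rose most among them. It read 4.06, 4.53 and 4.36 at E9.5 and 8.30, 8.27, 7.86, 7.85 and 8.53 at E10.5, a rise of 14.4-fold (log2 fold change 3.85 ± 0.21, SE; adjusted p = 1.42e-19). All 3 of its probe sets moved by 3.13 to 4.27. Nrk averaged 7.59 in E10.5 hindlimb and 8.79 in E11.5 forelimb, but 4.63 and 4.98 in whole embryo of E9.5 and E10.5. Nrk was thus low on all 3 E9.5 buds and on whole embryos of both stages, which share the first set of arrays. The higher values given here all came from the second set, so among these groups level and array set cannot be told apart.

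Mab21l1, which encodes a nuclear protein needed for lens development, read 5.18, 4.95 and 5.50 at E9.5 and 9.06, 9.30, 8.84, 8.52 and 9.26 at E10.5. Its log2 fold change was 3.79 ± 0.12 (SE; adjusted p = 1.8e-27), with probe sets at 3.38 and 4.19. Whole embryo, measured at both stages on the first set of arrays, also differed, by 1.83 (adjusted p = 1.28e-10). The gene was therefore higher at E10.5 both in the forelimb and within 1 set of arrays in whole embryo.

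Mme encodes neprilysin, a cell-surface peptidase. It read 4.12, 3.58 and 3.97 at E9.5 and 7.25, 7.58, 7.06, 7.27 and 7.42 at E10.5, a rise of 10.8-fold (adjusted p = 5e-22). Cxcl14, a chemokine of epithelium and mesenchyme, read 5.77, 5.42 and 5.68 at E9.5 and 9.02, 9.05, 8.21, 8.24 and 9.25 at E10.5, with E10.5 arrays 3 and 4 below the other three. It rose by 8.75-fold (adjusted p = 1.12e-18) and gained a further 1.86 log2 from E10.5 to E11.5 (adjusted p = 4.92e-12), within 1 set of arrays.

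Igf1, the circulating and local growth factor, read 6.42, 5.95 and 6.22 at E9.5 and 8.52, 9.26, 8.50, 8.87 and 8.85 at E10.5. All 4 probe sets rose, by 2.25 to 2.79, and the gene by 6.07-fold (adjusted p = 1.44e-16). Whole embryo also differed between the stages, by 1.11 (adjusted p = 0.00196), which missed the threshold. Of 11 measured genes of IGF signalling, Igf1, Igf2 (1.88) and the binding protein gene Igfbp2 (1.41) rose and none fell, at a median of 0.91, beside the -0.10 of all genes. This count and those of the lists that follow stand beside 5.74% of all genes up-regulated and 1.80% down-regulated, and the lists were not tested against each other. The probe sets of Igf2 stood at 0.86 and 2.90, so its fold depended on the probe set.

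The remaining 7 of the 12 genes code for surface, matrix and DNA-binding proteins. Tfap2b, an AP-2 transcription factor, rose by 2.69 ± 0.13 (log2, SE), and Itm2a, a membrane protein gene of cartilage precursors, by 2.58 ± 0.10. Itm2a read 9.83, 9.51 and 9.73 at E9.5 and 12.26, 12.42, 12.11, 12.06 and 12.49 at E10.5. The matrix glycoprotein gene Thbs1 rose by 2.48 ± 0.14, the transmembrane collagen gene Col23a1 by 2.30 ± 0.11 and Tmem26, a membrane protein gene, by 2.29 ± 0.18. The adhesion genes Pcdh8 and Fat4 rose by 2.44 ± 0.24 and 2.31 ± 0.13. Adjusted p-values of these 7 lay between 2.13e-24 for Itm2a and 6.01e-12 for Pcdh8. For Tmem26 and Pcdh8, E10.5 arrays 3 and 4 lay below the other three, at 6.66 and 6.71 for Tmem26 and 6.49 and 6.46 for Pcdh8.

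On the falling side, Prtg, which encodes protogenin, a surface receptor of early neural tube and mesoderm, read 9.85, 9.89 and 9.43 at E9.5 and 6.93, 6.07, 7.12, 7.45 and 6.02 at E10.5. It fell by 8.02-fold (log2 fold change -3.0 ± 0.19, SE; adjusted p = 2.19e-17), with all 3 probe sets between -3.12 and -2.94. Whole embryo differed in the same direction, by -1.76 (adjusted p = 1.01e-05), and E11.5 forelimb differed from E10.5 forelimb by -1.99 (adjusted p = 2.98e-12). Each of the last 2 differences lies within 1 set of arrays.

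Lin28a, which encodes an RNA-binding protein that blocks the maturation of let-7 microRNAs, read 8.80, 8.99 and 8.58 at E9.5 and 6.15, 5.73, 7.49, 7.92 and 5.57 at E10.5. E10.5 arrays 3 and 4 lay nearest to E9.5. Its log2 fold change was -2.22 ± 0.33 (SE; adjusted p = 2.23e-07), with probe sets at -3.22 and -1.22. Fitted on the 8 forelimb arrays alone it had an adjusted p of 0.00225 and missed the threshold. E10.5 hindlimb, on the same set of arrays as E10.5 forelimb, averaged 9.75 and lay above it by 3.18 ± 0.30 (SE; adjusted p = 1.18e-10), and E11.5 forelimb had come down to 3.88. Trim71, a partner ubiquitin ligase of early embryos, fell by 3.16-fold (-1.66), and Sall4, a zinc finger factor of stem cells and the early limb, by 3.09-fold (-1.63). Of 16 measured early embryo and stem cell factors these 3 fell and none rose, at a median of -0.22. Lin28b (-0.22), Hmga2 (0.36), Mycn (-0.24) and Myc (-0.93) were not called.

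Upk3b, a uroplakin gene that marks the mesothelium lining the body cavity, read 7.67, 7.52 and 7.38 at E9.5 and 3.99, 3.79, 3.64, 6.51 and 3.88 at E10.5. Array 4 of E10.5 stood apart from the other four, whose highest value was 3.99, and lay below every E9.5 array. The log2 fold change was -3.15 ± 0.33 (SE; adjusted p = 3.92e-11). The same array was also highest of the E10.5 forelimbs for Wt1, a mesothelial and kidney factor (4.29, 4.02, 4.33, 6.09 and 4.27), for Gata6 (4.95, 4.91, 4.94, 6.10 and 4.98) and for Alx1 (5.57, 5.81, 5.77, 7.06 and 5.34). Wt1 (-1.85) and Gata6 (-1.07) were called in the fit of all arrays but had adjusted p-values of 0.00177 and 0.00343 on the 8 forelimb arrays alone. For Gata6, a factor of heart and gut, the stages overlapped, and its log2 fold change was -0.98 without E9.5 array 2, under the fold threshold. Of 11 measured markers of intermediate and trunk lateral mesoderm these 2 fell and none rose, at a median of -0.70. Their summed intensity was 417 to 523.3 on the E9.5 arrays and 246.8 to 359.7 on the E10.5 arrays, and the part of adjoining body wall in these changes was not tested. In whole buds, fewer cells of a type and less RNA per cell cannot be told apart.

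Gata5, a zinc finger factor of heart and gut, read 6.78, 6.58 and 6.34 at E9.5 and 4.12, 4.02, 4.00, 4.43 and 3.92 at E10.5, a fall of 5.53-fold (adjusted p = 2.53e-19). Its levels lay lower in E10.5 hindlimb (4.32) and in E9.5 whole embryo (5.40) as well. Vegfd, a growth factor of lymphatic vessels, read 8.62, 8.96 and 8.94 and 6.91, 6.45, 7.22, 7.04 and 6.25, a fall of 4.18-fold (adjusted p = 8.28e-15), with its 3 probe sets between -2.24 and -1.94. Vegfd averaged 5.48 in E9.5 whole embryo on the same set of arrays, 5.74 in E11.5 forelimb and 6.34 in E10.5 hindlimb.

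Alx1, a homeodomain factor of craniofacial and limb mesenchyme, fell by 3.61-fold (log2 -1.85 ± 0.21, SE; adjusted p = 4.26e-10), from 7.85, 7.80 and 7.64 at E9.5. Car4, which encodes a membrane-bound carbonic anhydrase, fell with a log2 fold change of -2.42 ± 0.21, and whole embryo stood at 7.46 at E9.5 and 4.68 at E10.5. The secreted protein gene Lgi2 (-2.39 ± 0.11), the pantetheinase gene Vnn1 (-2.16 ± 0.14) and Hopx (-1.99 ± 0.16), a homeodomain protein gene whose product does not bind DNA, fell as well. Trabd2b, a membrane protease gene that inactivates WNT proteins, had a log2 fold change of -1.72 ± 0.16 and the kelch domain gene Klhdc4 one of -1.71 ± 0.11. Klhdc4 was even among replicates, at 8.60, 8.51 and 8.69 and 6.91, 6.87, 6.92, 6.86 and 6.91. Adjusted p-values of Car4, Lgi2, Vnn1, Hopx, Trabd2b and Klhdc4 lay between 7.7e-22 for Lgi2 and 2.45e-12 for Trabd2b.

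**Figure D3:**
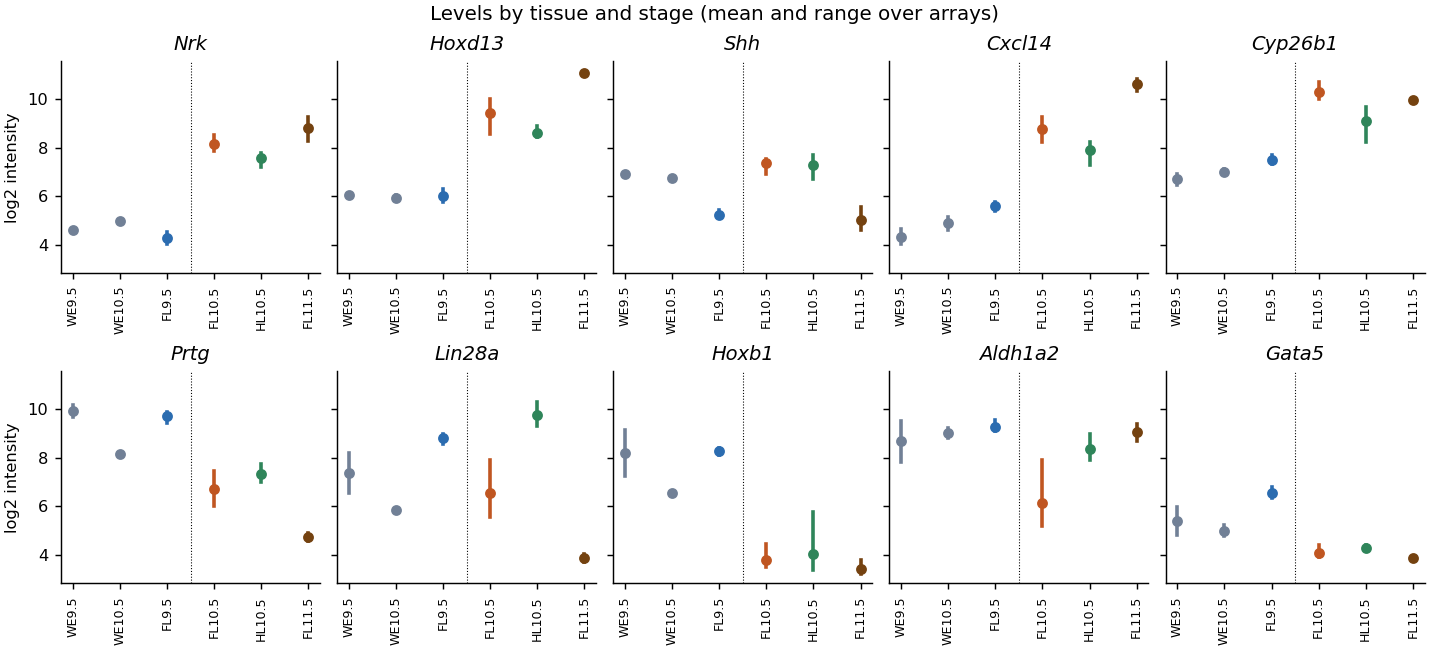
Log2 intensity of 10 genes in whole embryo, forelimb and hindlimb (marked on the axis by their initials with the stage), with points for means and lines for the range over 2 to 5 arrays; the dotted line divides the 2 sets of arrays. Lin28a was high in E10.5 hindlimb (9.75) right of the line, Prtg also fell within whole embryo left of it (9.90 to 8.15), and Shh was at 6.91 in E9.5 whole embryo, above E9.5 forelimb on the same set.

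Among Hox genes the direction of the calls differed between posterior and anterior groups. Of 11 measured posterior HoxA and HoxD genes, 7 rose and none fell, at a median log2 fold change of 1.30. They were Hoxd11 (4.51), Hoxd12 (3.85), Hoxd13 (3.38), Hoxa13 (2.12), Hoxa11 (1.97), Hoxa10 (1.30) and Hoxd10 (1.04). Hoxa9 (0.76), Hoxd9 (-0.69), Hoxd8 (-0.92) and Evx2 (-0.17) were not called. Of 18 measured anterior Hox genes, 9 fell and none rose, at a median of -0.83. These were Hoxb1 (-4.47), Hoxd1 (-3.05), Hoxb5 (-2.84), Hoxb6 (-2.50), Hoxc4 (-1.37), Hoxa4 (-1.21), Hoxd3 (-1.21), Hoxa5 (-1.20) and Hoxb9 (-1.08). The anterior list ran up to Hoxb9, while the posterior list began at Hoxa9 and Hoxd8, so the border between the lists differed by cluster. Leaving out the genes that separate the array sets, of which 5 of the 7 rising genes are part, gave the posterior list a median of 0.29.

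**Figure D4:**
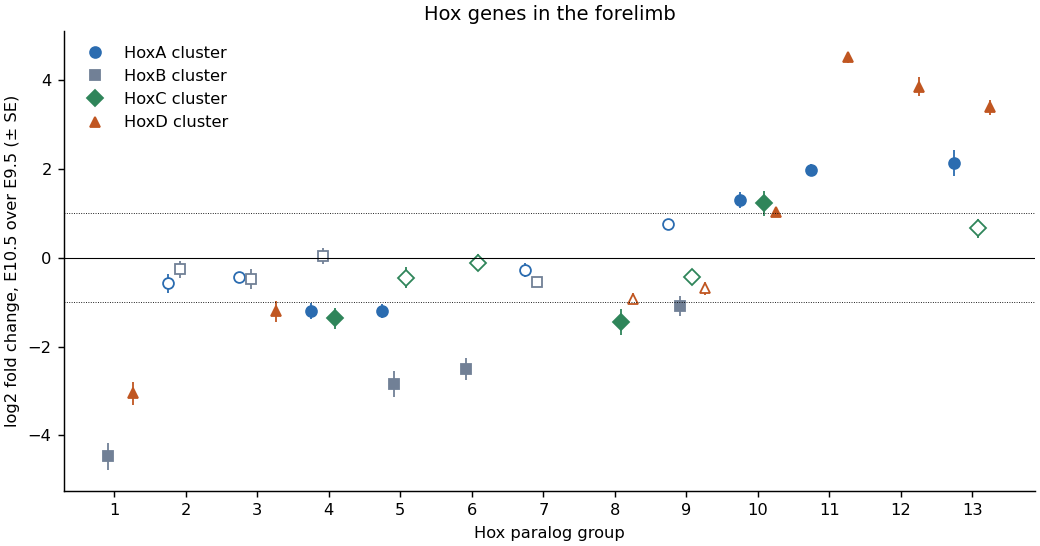
Log2 fold change from E9.5 to E10.5 forelimb (± SE) of each measured Hox gene by paralog group, with filled marks for called genes and dotted lines at 2-fold. Called genes of groups 1 to 9 lie below zero, down to -4.47 for Hoxb1, and called genes of groups 10 to 13 lie above it, up to 4.51 for Hoxd11.

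The sequences just before the starts of Hoxd11, Hoxd12 and Hoxd13 are shown because these neighbours rose together, and that of Hoxb1 because it fell most. They are RefSeq windows of 250 bases upstream of the start on GRCm38.p6, read 5′ to 3′ on the plus strand. Capitals mark TATAAA (the motif of the TATA box), CCAAT (bound by NF-Y), GGGCGG (the GC box, bound by SP1), AGGTCA (part of the site of nuclear receptors such as the retinoic acid receptors) and CCAATAAA (bound by group 13 HOX proteins, and overlapping CCAAT), each searched on both strands, so that a match on the minus strand stands as its complement (ATTGG for CCAAT). The positions are chr2:74682073-74682322 for Hoxd11, the later of its starts, chr2:74674763-74675012 for Hoxd12, chr2:74667975-74668224 for Hoxd13 and chr11:96365508-96365757 for Hoxb1.
Hoxd11: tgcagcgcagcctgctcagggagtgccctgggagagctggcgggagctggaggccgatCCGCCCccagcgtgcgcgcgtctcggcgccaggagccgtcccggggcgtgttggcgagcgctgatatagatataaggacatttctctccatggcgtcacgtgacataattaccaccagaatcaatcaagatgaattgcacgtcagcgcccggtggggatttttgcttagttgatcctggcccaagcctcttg
Hoxd12: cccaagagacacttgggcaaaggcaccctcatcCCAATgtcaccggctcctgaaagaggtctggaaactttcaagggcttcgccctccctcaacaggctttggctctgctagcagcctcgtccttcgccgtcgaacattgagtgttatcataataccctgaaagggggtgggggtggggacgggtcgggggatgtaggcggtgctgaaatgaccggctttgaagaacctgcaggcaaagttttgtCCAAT
Hoxd13: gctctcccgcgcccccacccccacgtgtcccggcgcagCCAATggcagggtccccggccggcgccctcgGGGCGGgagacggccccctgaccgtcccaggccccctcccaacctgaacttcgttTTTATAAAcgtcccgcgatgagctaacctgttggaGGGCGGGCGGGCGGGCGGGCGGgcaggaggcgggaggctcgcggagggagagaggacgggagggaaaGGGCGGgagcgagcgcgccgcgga
Hoxb1: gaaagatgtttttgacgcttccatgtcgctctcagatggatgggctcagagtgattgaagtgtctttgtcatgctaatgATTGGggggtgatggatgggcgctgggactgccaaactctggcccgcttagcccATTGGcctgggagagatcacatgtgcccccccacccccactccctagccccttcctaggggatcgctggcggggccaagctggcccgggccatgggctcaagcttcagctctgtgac
Hoxd13 held 31 CG pairs and 7 overlapping or separate GC boxes besides a TATA box matched on both strands, Hoxd11 held 20 CG pairs and 1 GC box, and Hoxd12 and Hoxb1 held 10 and 7 CG pairs and no GC box. The median over 32851 windows was 6 CG pairs. A CCAAT match lay in the windows of Hoxd12, Hoxd13 and Hoxb1 and in 33.8% of all windows, a GC box in 32.7%, TATAAA in 12.4%, AGGTCA in 14% and CCAATAAA in 1.02%. None of the 4 windows held AGGTCA or CCAATAAA, which says only that these letters are not there.

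Hoxd11 read 4.43, 4.68 and 5.03 at E9.5 and 9.24, 9.39, 9.21, 8.93 and 9.34 at E10.5, a rise of 22.8-fold (log2 4.51 ± 0.12, SE; adjusted p = 2.95e-30). Hoxd12, from the next position, read 4.28, 4.64 and 3.63 and 7.85, 8.74, 7.69, 7.37 and 8.52, a rise of 14.4-fold (adjusted p = 7.95e-19). Hoxd13, at the end of the cluster and required in the digits, read 5.99, 5.79 and 6.32 and 9.62, 9.89, 9.03, 8.55 and 9.98, a rise of 10.4-fold (adjusted p = 5.48e-20). All 3 lay far above every E9.5 bud, and E10.5 arrays 3 and 4 were the lowest of their stage for Hoxd12 and Hoxd13.

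For Hoxd11, Hoxd12 and Hoxd13 all later limb arrays lay above all arrays of the first set. Whole embryo, on that set, stood at 4.48, 3.54 and 5.95 at E10.5. Within the second set, Hoxd13 rose by a further 1.62 from E10.5 to E11.5 forelimb (adjusted p = 1.27e-10) and Hoxd12 by 1.01 (adjusted p = 0.000166). Hoxa13, the HoxA gene of the hand, read 4.71, 5.09 and 4.97 and 7.28, 7.70, 6.27, 5.99 and 8.0, a log2 fold change of 2.12 ± 0.29 (adjusted p = 4.7e-08), and its E10.5 arrays 3 and 4 were again lowest. E10.5 forelimb and hindlimb, within the second set, differed by 0.81 for Hoxd13 (adjusted p = 0.00041) and by 0.90 for Hoxa13 (adjusted p = 0.0178).

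Hoxb1, a gene of the hindbrain and early trunk mesoderm, read 8.31, 8.40 and 8.10 at E9.5 and 3.62, 3.52, 3.82, 4.47 and 3.57 at E10.5, a fall of 22.2-fold (log2 -4.47 ± 0.30, SE; adjusted p = 1.65e-16). It was near 8.19 in E9.5 whole embryo and 6.54 in E10.5 whole embryo. Hoxb5, a gene of the forelimb level of the trunk, read 10.13, 10.42 and 10.31 and 7.50, 7.22, 7.70, 8.10 and 6.71, a fall of 7.17-fold (adjusted p = 9.11e-11), and E11.5 forelimb differed from E10.5 by -1.38 (adjusted p = 0.000176). Hoxd1 read 7.16, 7.41 and 7.02 and 4.17, 3.64, 4.52, 4.73 and 3.66, a fall of 8.28-fold. For none of the 9 falling Hox genes did the array sets separate, and E10.5 array 4 was the highest of its stage, or tied for it, in each of them.

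Of the HoxC genes of groups 8 to 13, which pattern trunk and hindlimb levels, 4 were measured. Hoxc10 rose (1.23 ± 0.28, adjusted p = 0.00027) and Hoxc8 fell (-1.45 ± 0.30, adjusted p = 6.22e-05). Hoxc10 lost its call without E9.5 array 2 (1.06, adjusted p = 0.0056) and without E10.5 array 1 (1.16, adjusted p = 0.00102), and Hoxc8 without E9.5 array 1 (-1.30, adjusted p = 0.00143).

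In level the limb identity genes matched the label, with Tbx5 above and Pitx1 and Tbx4 below E10.5 hindlimb, though Tbx4 rose. For E9.5 forelimb this comparison crosses the 2 sets of arrays. Tbx5, the T-box gene of the forelimb, read 7.69, 8.05 and 7.62 at E9.5 and 8.98, 9.16, 8.86, 8.79 and 9.33 at E10.5, above the 5.20 of E10.5 hindlimb. It rose by 2.36-fold (adjusted p = 1.85e-07), with probe sets at 0.56 and 1.92, the lower of them the brighter. Pitx1 of the hindlimb lay at 5.67, 5.49 and 5.46 and 4.74, 4.94, 4.47, 4.79 and 5.04, against 10.19 in hindlimb. Tbx4, the hindlimb T-box gene, rose by 4.71-fold in the forelimb, from 4.68, 4.35 and 4.55 to 7.02, 6.88, 6.48, 6.44 and 7.01 (adjusted p = 1.2e-20), with both probe sets called. Hindlimb of E10.5 lay at 9.70, 2.93 ± 0.10 (SE) above E10.5 forelimb (adjusted p = 3.32e-25), and E11.5 forelimb at 6.78.

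Of 15 measured genes in the hedgehog list, which also held Hand2 and Grem1 from outside the pathway itself, 4 rose and none fell, at a median of 0.37. Shh, the signal of the zone of polarizing activity, read 5.17, 5.11 and 5.43 at E9.5 and 7.53, 7.53, 7.32, 6.93 and 7.55 at E10.5, a rise of 4.39-fold (log2 2.13 ± 0.17, SE; adjusted p = 2.02e-14), with probe sets at 1.69 and 2.58. The array sets overlapped, since E9.5 whole embryo stood at 6.91. Within the second set, E11.5 forelimb differed from E10.5 by -2.33 (adjusted p = 1.22e-15). Shh averaged 5.045 in E11.5 forelimb and 5.238 in E9.5 forelimb, which lie on different sets of arrays. Gli1, a transcriptional target and effector of the pathway, read 5.23, 4.57 and 5.34 and 7.03, 6.54, 6.74, 6.53 and 6.52, a log2 fold change of 1.63 ± 0.16 (adjusted p = 8.91e-12). Grem1, the BMP inhibitor that links SHH to the ridge, read 6.16, 6.31 and 6.07 and 9.0, 9.41, 9.40, 9.11 and 8.97, a rise of 7.98-fold (adjusted p = 4.09e-11), without overlap. Hand2, which acts upstream of Shh in the posterior bud, rose by 3.2-fold (1.68, adjusted p = 1.54e-14), and its 3 probe sets by 1.01 to 2.13. The receptor genes Ptch1 (0.49) and Hhip (0.71) and Smo (0.09), Gli2 (-0.09) and Gli3 (0.18) were not called.

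Of 20 measured genes of the apical ectodermal ridge, 1 rose and 1 fell, near the 5.74% and 1.80% of all genes, at a median of 0.29. Fgf8, the main ridge FGF, read 7.60, 7.36 and 8.09 at E9.5 and 9.03, 8.97, 9.22, 9.03 and 9.03 at E10.5, a rise of 2.59-fold (log2 1.37 ± 0.26, SE; adjusted p = 2.01e-05). E11.5 forelimb differed from E10.5 by -2.29 (adjusted p = 3.58e-10). Sp8, a zinc finger factor needed for Fgf8 in the ridge, read 8.74, 8.69 and 8.91 and 7.25, 7.10, 7.37, 7.44 and 6.92, a fall of 2.95-fold (adjusted p = 2.03e-09), opposite to Fgf8. Fgf4 (0.49), Fgf9 (0.56), Fgf17 (0.26), Dlx5 (0.37) and Dlx2 (-0.93) were not called. Of 12 FGF response genes Etv5 alone rose (1.32), a count near that share too, at a median of 0.45, but its probe sets spanned -0.19 to 2.30, the brightest of them being the lowest, and it separated the array sets. The targets Etv4 (0.56), Dusp6 (0.57) and Spry4 (0.38) and the mesenchymal ligand gene Fgf10 (0.90) were not called. Spry1 (-0.80) and Spred2 (-0.24) of the same list lay lower at E10.5 and were not called either.

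Of 14 measured genes of the retinoic acid pathway 2 rose and 3 fell, at a median of 0.02. Aldh1a2, the main retinoic acid synthase of the trunk, read 9.54, 9.14 and 9.09 at E9.5 and 5.76, 5.89, 5.19, 7.89 and 6.05 at E10.5, a fall of 8.56-fold (log2 -3.10 ± 0.33, SE; adjusted p = 1.16e-10). E10.5 array 4 lay above the other four of its stage and below every E9.5 array. Within the second set, Aldh1a2 stood at 8.35 in E10.5 hindlimb and 9.04 in E11.5 forelimb, above E10.5 forelimb by 2.89 in the latter (adjusted p = 4.36e-10). Rdh10, which makes retinaldehyde, the substrate of Aldh1a2, read 9.94, 10.07 and 10.09 and 8.52, 8.39, 8.60, 8.87 and 8.21, a fall of 2.86-fold with both probe sets called (adjusted p = 1.11e-13). Cyp26b1, which degrades retinoic acid in the distal bud, read 7.69, 7.52 and 7.31 and 10.68, 10.16, 10.20, 9.99 and 10.32, a rise of 6.8-fold (adjusted p = 1.45e-17). The receptor gene Rarg rose by 1.91, with probe sets at 0.80 and 3.02, and separated the array sets. Aldh1a1 fell (-1.12), and Crabp2 (0.53), Rarb (0.49), Stra6 (0.67) and Cyp26a1 (-0.26) were not called.

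**Figure D5:**
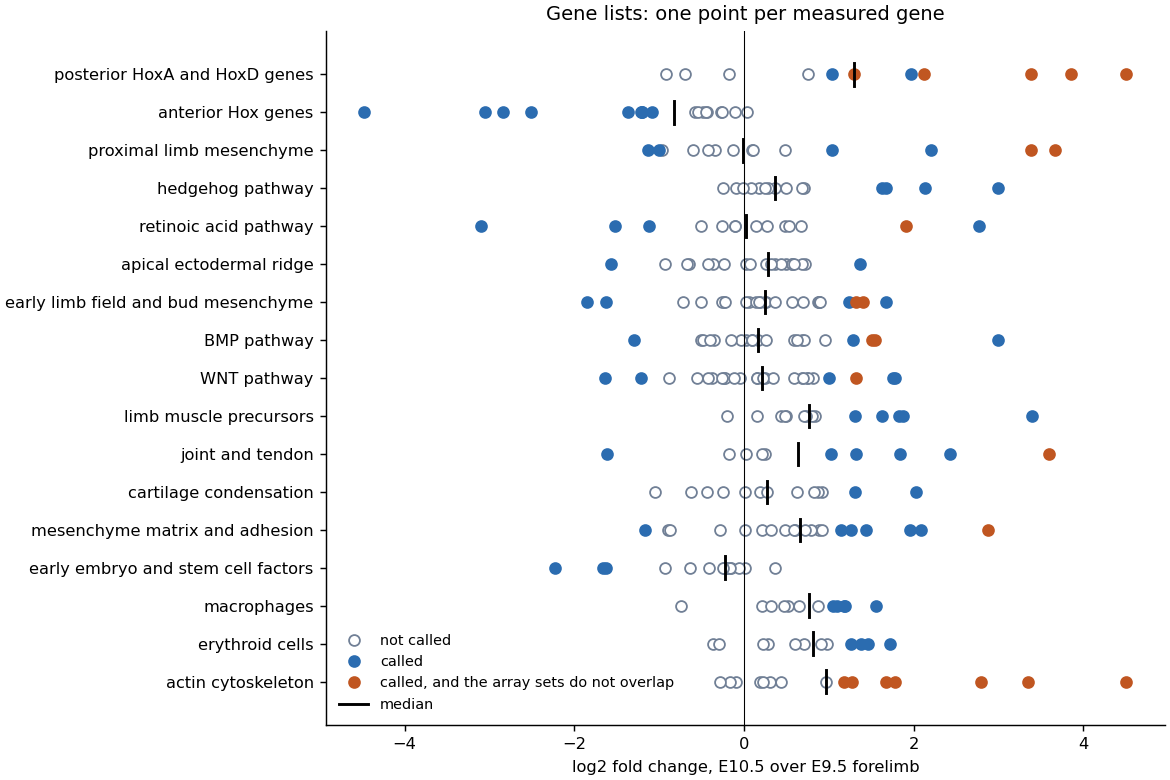
Log2 fold change from E9.5 to E10.5 forelimb of every measured gene in 17 lists, with open circles for genes not called, filled circles for called genes (a second colour where the array sets do not overlap) and a bar at the median of the list. The posterior HoxA and HoxD genes have a median of 1.30 and the anterior Hox genes one of -0.83, and all 7 called actin genes carry the second colour.

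Genes of the proximal bud went in both directions. Of 14 measured, 4 rose and 2 fell, at a median of -0.01. Shox2, required for the humerus, read 7.15, 7.10 and 7.48 and 10.75, 10.67, 10.52, 10.36 and 10.81, a rise of 10.4-fold (adjusted p = 3.83e-25). Tbx15, required for the shoulder girdle, rose by 12.7-fold, and for both of these genes the array sets separated. Tbx18 read 7.64, 7.86 and 8.06 and 10.27, 10.22, 9.79, 9.68 and 10.35, a rise of 4.62-fold with both probe sets called (adjusted p = 8.5e-18), and its array sets overlapped. The PBX cofactor gene Pbx2 rose by 1.04. E10.5 forelimb exceeded hindlimb in Tbx18 by 1.58 (adjusted p = 8.52e-13). Meis1, a cofactor gene of the proximal bud, read 7.59, 7.67 and 7.67 and 6.55, 6.61, 6.85, 6.74 and 6.46, a log2 fold change of -1.0 ± 0.13 (adjusted p = 6.07e-09), and Meis2 had -1.13 ± 0.16 (adjusted p = 1.27e-07). Meis1 and Meis2 were called narrowly by fold, and E11.5 forelimb differed from E10.5 by a further -0.62 and -0.74 (adjusted p = 6.28e-05 and 0.000196).

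Most genes of the limb field and early bud mesenchyme stayed within 2-fold, with 4 of 25 up and 2 down at a median of 0.25. Hand2, Prrx1 (1.41), Etv5 and Tbx5 rose and Sall4 and Alx1 fell. The 6 probe sets of Prrx1, a homeobox gene of limb mesenchyme, spanned -0.01 to 4.01, and its array sets separated. Twist1 (-0.72), Msx1 (0.25), Lhx2 (0.89), Lmx1b (-0.26) and Tbx3 (0.69) were not called. Of the defining mesenchyme markers, Msx1 read 9.23, 9.42 and 9.36 at E9.5 and 9.59, 9.37, 9.82, 9.64 and 9.5 at E10.5, and the stages overlapped.

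Among 21 genes of the BMP pathway 4 rose and 1 fell, at a median of 0.17. Besides Grem1 these were Id1 (1.54), Smad5 (1.51) and Bmper (1.28), a target, a signal transducer and a modulator, with array sets that separated for Id1 and Smad5. The probe sets of Smad5 ran from 0.42 to 2.90, and it lost its call where read from the brightest, which was the lowest. Bambi, a pseudoreceptor gene that dampens BMP signalling, read 10.93, 10.95 and 10.96 and 9.62, 9.67, 9.67, 9.76 and 9.53, a log2 fold change of -1.29 ± 0.09 (adjusted p = 6.3e-16). The ligand genes Bmp2 (0.02), Bmp4 (0.68) and Bmp7 (0.59) were not called. Of 27 genes of the WNT pathway 4 rose and 2 fell, at a median of 0.22. The secreted inhibitor gene Frzb rose by 1.78 (probe sets 0.85 and 2.71) and the agonist gene Rspo3 by 1.75 (probe sets 0.57 and 2.93). The receptor gene Ror1 (1.32), which separated the array sets, and the inhibitor gene Nkd2 (1.00) rose as well. The ectodermal ligand gene Wnt6 read 8.55, 8.79 and 8.73 and 7.23, 6.83, 7.34, 7.12 and 6.73, a fall of 3.12-fold with both probe sets called (adjusted p = 2.67e-13), and the agonist gene Rspo4 fell by 2.33-fold. Of 15 genes of the Notch pathway the ligand gene Jag1 (1.51) and the target Nrarp (1.34) rose and none fell, at a median of 0.43.

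Markers of muscle precursors, which migrate into the bud from the somites, rose in part. Of 14 measured, 5 rose and none fell, at a median of 0.77. Cxcr4, a chemokine receptor of migrating cells that endothelium also carries, read 4.74, 4.51 and 4.34 at E9.5 and 8.0, 8.28, 7.51, 7.71 and 8.10 at E10.5, a rise of 10.51-fold (adjusted p = 1.54e-14). Myf5, a myogenic determination factor, read 6.39, 5.27 and 6.03 and 7.66, 7.95, 7.53, 7.68 and 8.02, a rise of 3.67-fold (adjusted p = 6.58e-11). E10.5 hindlimb lay at 5.65, 2.12 ± 0.18 (SE) below E10.5 forelimb (adjusted p = 6.25e-12), within 1 set of arrays. Met, the receptor gene needed for the migration, was called at 1.83, but its probe sets stood at 0.24 and 3.42. Eya4 (1.63) and Msc (1.31) rose, and Pax3 (0.84), Lbx1 (0.80), Myod1 (0.49) and Myog (0.71) were not called.

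Among genes of joints, tendons and cartilage more rose than fell. Of 10 joint and tendon genes 5 rose and 1 fell, at a median of 0.64. Osr1 and Osr2, zinc finger genes of joint-forming and irregular connective tissue, rose by 12.1-fold and 5.39-fold. Osr1 read 5.26, 5.07 and 5.61 and 8.86, 9.06, 8.89, 8.59 and 9.17, separating the array sets, and Osr2 had probe sets at 0.35 and 4.52. The tendon genes Mkx and Scx rose by 1.84 and 1.32, the joint ligand gene Gdf5 by 1.03, and the early response gene Egr1 fell by 3.06-fold. Of 13 genes of cartilage condensation Col9a1 and Col2a1, collagen genes of cartilage, rose by 2.03 ± 0.14 and 1.31 ± 0.19 and none fell, at a median of 0.27. Col2a1 read 8.52, 8.68 and 8.78 and 10.35, 9.90, 9.62, 9.71 and 10.29, and E11.5 forelimb lay a further 1.48 above E10.5 (adjusted p = 9.37e-09). Sox9, the master factor of cartilage, had 0.92 ± 0.11 and was not called, as its fold stayed under 2.

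Of 20 genes of mesenchymal matrix and adhesion 6 rose and 1 fell, at a median of 0.66. The adhesion gene Cdh11 (2.08 ± 0.12) and the fibrillar collagen gene Col5a2 (1.96 ± 0.09) rose with both probe sets called and overlapping array sets. Epha4, a guidance receptor gene, rose by 2.87, with 5 probe sets from 0.57 to 4.21, and separated the array sets. Col1a2 (1.45), Efnb1 (1.27) and Epha7 (1.14) rose as well, and Postn, a matrix gene of outer mesenchyme, fell (-1.17). Of 10 genes of somite and paraxial mesoderm, Meox2 (1.91) and Foxc1 (1.40) rose and Foxc2 (-1.42) and Meox1 (-1.09) fell, at a median of -0.10.

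Several blood and vessel genes rose and none fell. Of 12 macrophage markers 5 rose and none fell, at a median of 0.76. They were Mrc1 (1.56), Cd68 (1.20), C1qb (1.18), Tyrobp (1.09) and C1qa (1.05), of which C1qb had probe sets from 0.36 to 2.22. The summed intensity of the list was 401.3 to 428 at E9.5 and 523.2 to 689.1 at E10.5, and Csf1r (0.65) and Adgre1 (-0.74) were not called. Of 12 erythroid genes Rhag, Hba-x, Hemgn and Klf1 rose (1.72, 1.46, 1.39 and 1.27), at a median of 0.81, and 6 did so without E10.5 array 4. Hemgn lost its call without E9.5 array 3 (1.30, adjusted p = 0.00123). Hba-x, an embryonic globin gene, read 12.43, 12.62 and 12.32 and 13.94, 14.09, 13.73, 13.83 and 14.01. Of 18 endothelial genes Pecam1 (3.01), Fli1 (1.84) and Tie1 (1.14) rose and none fell, at a median of -0.04. The array sets separated for all 3, Tie1 lost its call after quantile normalization (0.91, adjusted p = 6.81e-05), and Kdr (-0.84), Cdh5 (0.38) and Tek (-0.61) were not called. The share of blood and vessels in the 2 dissections was not tested.

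In the ectoderm list of 17 genes, Grhl3 (1.96), Krt14 (1.31) and Krt5 (1.13), genes of epidermal maturation, rose, and the simple keratin gene Krt19 fell (-1.16), at a median of -0.09. The other 13, among them Krt8, Krt18, Epcam, Cdh1 and Trp63, were not called. The summed intensity of the list was lower at E10.5, at 4974 to 5561 on the E9.5 arrays and 3929 to 4270 on the E10.5 arrays. Markers of heart, liver and gut fell or were not called. Of 10 liver and gut genes the plasma protein genes Alb and Ttr fell and none rose. Alb read 7.33, 4.88 and 4.36 at E9.5 and 3.47, 3.78, 3.76, 3.36 and 4.11 at E10.5. Its log2 fold change of -1.83 was -0.93 without E9.5 array 1 (adjusted p = 0.000612), under the fold threshold, and Ttr (-1.09) stood at -0.59 without that array and lost its call (adjusted p = 0.0693). On the 8 forelimb arrays alone, Alb and Ttr had adjusted p-values of 0.0105 and 0.0215 and missed the threshold. The call of Ttr was also lost without E9.5 array 2 or without any 1 of E10.5 arrays 1, 2, 4 and 5, at values of -1.13 to -1.0 and adjusted p-values of 0.00117 to 0.00812. The summed intensity of this list was 824.9 to 1113 at E9.5 and 563.5 to 738.8 at E10.5. Of 10 heart genes Myl2 fell (-1.21), with summed intensities of 308.8 to 592.3 and 211.4 to 747. Of 17 neural genes Dcx rose (1.58) and Nefl fell (-1.66), near the shares of all genes. None of 6 neural crest markers was called, with Sox10 at -0.46 ± 0.15 (SE; adjusted p = 0.00889). Of these 6, 3 had an unadjusted p under 0.05 in limma, beside 11604 of all 18194 genes, so nothing is read from that count. All of these organ markers were read from the same dissections, and the part of neighbouring tissue in the values was not tested.

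Among genes of growth and metabolism, calls often rested on part of the probe sets. Of 20 genes of DNA replication Mcm5 (-1.06) and Ccne1 (-1.32) fell and none rose, at a median of -0.16. The call of Mcm5, a subunit of the replicative helicase, rested on its dimmest probe set (-2.38), while the brighter ones stood at -0.33 and -0.47 and were not called. Ccne1, the cyclin of the entry into S phase, read 11.23, 11.14 and 11.51 and 10.01, 9.78, 10.12, 10.07 and 9.89, a fall of 2.5-fold with both probe sets called (adjusted p = 1.08e-15). Of 19 genes of mitosis 6 rose and 1 fell, at a median of 0.02. But Cenpe (1.85) had probe sets at 0.56 and 3.13, Kif11 (1.53) from 0.63 to 3.10 and Nusap1 (1.44) at 0.96 and 1.92. Each of these 3 lost its call where read from its brightest probe set, and Kif11 separated the array sets. The others that rose were Cenpf (1.07), Birc5 (1.04) and Ube2c (1.35). Aurkb, a kinase of chromosome segregation, fell (-1.17), and Mki67 (0.01) and Cdk1 (-0.09) were not called. Of 19 genes of glycolysis and the hypoxia response 2 rose and 2 fell, at a median of -0.54. The hexokinase gene Hk2 (-1.01) and the pyruvate dehydrogenase kinase gene Pdk1 (-1.27) fell and Hk1 (1.33) and the glucose transporter gene Slc2a3 (1.33) rose, with Slc2a3 probe sets from -0.64 to 3.08, the brightest at -0.20. The probe sets of Pdk1 ran from -2.39 to -0.24 and those of Hk1 stood at 0.44 and 2.23. Read from the probe set of highest mean, Pdk1 had -0.24 (adjusted p = 0.0734) and Hk1 0.44 (adjusted p = 0.0417), and both lost their calls. Pgk1 (-0.76), Ldha (-0.56) and Pkm (-0.54) were not called. Of 21 imprinted genes 5 rose and none fell, at a median of 0.21. They were Nnat (2.99), Igf2, Cdkn1c (1.29), Peg10 (1.06) and Grb10 (3.07). The probe sets of Grb10 ran from -0.14 to 5.64, the brightest being the lowest, and it separated the array sets.

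Of the 5 highest and 5 lowest called genes whatever their probe sets, 7 separated the array sets. AI506816, an uncharacterized transcript, read 4.6, 4.41 and 4.87 at E9.5 and 9.78, 9.73, 9.91, 9.86 and 9.74 at E10.5 (36.2-fold higher), and Cap1, which encodes an actin-binding protein, read 6.64, 6.42 and 5.46 and 10.53, 10.81, 10.68, 10.65 and 10.75 (22.8-fold). E10.5 hindlimb stood at 10.15 and 10.81, and whole embryo of both stages at 4.28 to 4.37 and about 5.95. All 7 of the 15 actin cytoskeleton genes that rose, with Csrp1 (3.35), Net1 (2.79), Vcl (1.78), Pfn1 (1.67), Tmsb10 (1.28) and Cfl1 (1.18) besides Cap1, separated the array sets, and so did the only 2 of 29 ribosomal protein genes that rose, Rps27 (1.53) and Rps15 (1.47), near the share of all genes. Gm6958 (-4.36), Spata5l1 (-3.94) and Zfp874a (-3.57) did so on the falling side. Pmaip1, which encodes the cell death protein NOXA, did not. It read 6.41, 6.27 and 6.41 at E9.5 and 11.01, 11.08, 10.14, 10.00 and 11.23 at E10.5, a rise of 20.1-fold (adjusted p = 1.27e-15), and E10.5 hindlimb, within the second set, lay 2.12 ± 0.29 (SE) below E10.5 forelimb (adjusted p = 5.95e-07).

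The change in forelimb was also set against the change in whole embryo between the same stages, a difference that again spans the array sets on the forelimb side alone. It was called upward in 5.53% and downward in 1.77% of genes. The genes described here were chosen for a called forelimb change, which is part of this difference, so nothing is read from how many of them passed it. Among the favoured genes it was not called for Prtg, Car4 and Lin28a, whose changes in whole embryo were -1.76, -2.78 and -1.50.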

How the data were processed

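Total RNA was amplified in 2 labelling cycles and hybridized to Affymetrix whole-genome mouse arrays, whose probe sets the authors summarised by RMA, left at its defaults. The deposited values were intensity on a linear scale. Log2 was taken, which the planned test allowed for. Of 45101 probe sets, 34958 had 1 gene symbol and were averaged into 18194 genes, while 932 with several symbols and 9211 not listed were left out. Groups were taken from the sample titles, with which another label conflicted for 2 limb arrays outside the groups compared here. The 14 groups were fitted together in limma 3.58.1 under R 4.3.3 (37 residual degrees of freedom). Genes were called at 2-fold and a Benjamini-Hochberg adjusted p under 0.001. The same model was fitted per probe set. All 51 value columns matched a sample. The code was tested on simulated data. Array number limits the precision.

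Genes were named by a rule: the 12 highest and 12 lowest called genes whose probe sets agreed, whose stages did not overlap and whose array sets overlapped, the 5 highest and 5 lowest called genes, up to 3 called genes of each list or 1 where none was called, and tissue markers. The comparison and the 35 lists, with 509 of 552 genes measured, were chosen with earlier results of these data known. Values of further list members were chosen after they were seen. Promoter windows came from RefSeq. The alternatives were other scalings, thresholds, filters, probe set choices, a replicate block and leaving out each array.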

Additional observations from a re-analysis of the deposited data

Results flagged for a closer look

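Within the 5 E10.5 forelimb arrays, 1 array stood apart from the other four for 9 of the 114 named genes, beside 5.7 at 1 in 20. The genes were read on the same 5 arrays and are not independent, so nothing is read from that count. Array 4 was the highest for Upk3b (6.51), Wt1 (6.09), Gata6 (6.10), Alx1 (7.06) and Spata5l1 (3.96) and the lowest for Gm6958 (4.18). Array 1 was the lowest for Car4 (3.46), array 3 the highest for Fgf8 (9.22) and array 5 the highest for Sox10 (5.53). The nearest other array was close for Spata5l1 (3.835) and Fgf8 (9.035) and far for Upk3b (3.995).

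The forelimb change differed from the whole-embryo change between the same stages for 83 of the 114 named genes, by the same fold and adjusted p in limma. Of all genes 5.53% passed upward and 1.77% downward. Since 111 of the 114 were called for the forelimb change, which is part of the difference, a high count was built in by how they were chosen, and nothing is read from it. The forelimb side of each difference spans the 2 sets of arrays and the whole-embryo side, of 2 arrays a stage, lies within the first set, so the difference cannot be told apart from the array set. The values below are forelimb change minus whole-embryo change on the log2 scale.

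It was 5.12 for Pmaip1, 5.08 for AI506816, 4.51 for Cap1, 4.29 for Hoxd11, 4.21 for Hoxd12, 4.03 for Osr1, 3.62 for Cxcr4, 3.50 for Nrk, 3.49 for Csrp1, 3.47 for Hoxd13, 3.37 for Grb10, 3.22 for Net1, 3.20 for Grem1, 3.08 for Pecam1, 3.04 for Mme and 2.85 for Nnat. Next in size were 2.74 for Epha4, 2.62 for Tbx15, 2.58 for Cxcl14, 2.5 for Itm2a, 2.47 for Cyp26b1, 2.47 for Osr2, 2.38 for Thbs1, 2.29 for Shh, 2.27 for Tfap2b, 2.23 for Fgf8, 2.19 for Id1, 2.19 for Pcdh8, 2.13 for Tbx4, 2.06 for Slc2a3, 2.06 for Rarg and 2.05 for Shox2. Smaller ones were 2.01 for Jag1, 1.98 for Col23a1, 1.96 for Mkx, 1.96 for Mab21l1, 1.91 for Cdh11, 1.90 for Tbx18, 1.88 for Grhl3, 1.80 for Met, 1.79 for Rspo3, 1.76 for Col9a1, 1.75 for Rps15, 1.74 for Frzb, 1.72 for Rps27, 1.72 for Tmem26, 1.70 for Hand2 and 1.68 for Meox2. The smallest positive ones were 1.68 for Fli1, 1.66 for Cenpe, 1.66 for Col5a2, 1.62 for Etv5, 1.62 for Myf5, 1.58 for Kif11, 1.49 for Igf1, 1.48 for Nusap1, 1.39 for Fat4, 1.39 for Tie1, 1.33 for Foxc1, 1.26 for Smad5, 1.25 for Cd68 and 1.10 for Krt14.

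The lowest differences were -4.64 for Gm6958, -4.03 for Nefl, -3.69 for Upk3b, -3.44 for Aldh1a2, -3.40 for Spata5l1, -3.14 for Hoxb5 and -3.03 for Alb. Nearer to zero lay -3.02 for Zfp874a, -2.82 for Hoxb1, -2.50 for Wt1, -2.15 for Lgi2, -2.15 for Vegfd, -2.07 for Gata5 and -1.95 for Hoxd1. The remaining negative ones were -1.83 for Alx1, -1.70 for Klhdc4, -1.37 for Trabd2b, -1.31 for Hopx, -1.10 for Vnn1, -1.04 for Ccne1 and -1.01 for Wnt6.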

How the results depend on the processing

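Across the alternatives run, no scaling, filter or left-out array turned the direction of a called gene among those named, except that Etv5, Grb10 and Slc2a3 stood at -0.19, -0.14 and -0.20 where each gene was read from the probe set of highest mean. That setting gave 551 down-regulated genes and turned the sign of 106 called genes. Besides the genes whose direction it turned, C1qb, Cenpe, Epha4, Frzb, Hk1, Igf2, Kif11, Mcm5, Met, Nusap1, Pdk1, Rarg, Smad5, Tbx5 and Ttr lost their calls there. Without a fold threshold 3342 genes passed upward and 3305 downward, 396 and 287 of them with every probe set called. Without the genes that separate the array sets 530 were up-regulated, 64 of them with every probe set called. Leaving out 1 forelimb array at a time gave 998 to 1059 up-regulated and 308 to 349 down-regulated genes, with every probe set called in 91 to 105 and 36 to 45. With E10.5 array 4 left out, the matrix and neuron lists had 2 down-regulated genes each, the liver and gut and the Notch lists 1, and the imprinted and actin lists 4 and 6 up-regulated genes.

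The 2 stages came from different litters and share only replicate numbers. Deviations of same-numbered arrays correlated at -0.02, -0.05 and 0.03 across genes. With the replicate number as a block the 8 forelimb arrays gave 1026 up-regulated and 340 down-regulated genes, 102 and 39 with every probe set called. Xist, not called, turned to 0.50 under the block. Alb, C1qb, Mcm5, Prl8a2 and Ttr missed the threshold there. Leaving out E10.5 hindlimb array 2, chosen after seeing the data, gave 1042 and 328 calls. The causes of these changes were not tested. Log2 intensities near the lower end of the range, 2.29 to 14.79 over all arrays, limit the folds of dim genes.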

Other observations

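Outside the gene table lay 10092 probe sets with several gene symbols or none listed, with control probe sets left out. At the same threshold 280 of them were higher and 206 lower in E10.5 than in E9.5 forelimb, with log2 differences from 4.76 to -6.05.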
